A study of Mus musculus with 5 samples.

Results

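RNA polymerase II (RNA Pol II) sites in duplicated sequence are stretches of the mouse genome where chromatin immunoprecipitated with an antibody to RNA Pol II gave many reads listed at 2 places. They were chosen from those reads alone. A 500-bp bin was kept when it held at least 8 RNA Pol II reads listed at 2 places and at least 3 times the scaled level in whole cell extract (WCE), and adjacent bins were joined. This gave 2318 regions made of 2846 bins (1423 kb), out of 167131 autosomal bins with at least 1 such RNA Pol II read, so that 1.70% of the bins were kept. Because these values chose the regions, the RNA Pol II folds over WCE of reads at 2 places are given as descriptions with no test.

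The 5 libraries were RNA Pol II (antibody 8WG16), the transcription factor E2F4, trimethylated lysine 27 of histone H3 (H3K27me3), and WCE replicates 1 and 2, which had no antibody. All came from secondary fibroblasts of mouse embryos, in which doxycycline can switch on Klf4, Sox2 and Oct4 and which also hold an Oct4-selectable cassette. These fibroblasts were taken at 13.5 dpc from chimeras made by injecting induced pluripotent cells into BDF2 blastocysts, and puromycin at 2 µg/ml for 48 hours selected the cells descended from the injected ones. The labels used here do not say whether doxycycline was present. Each antibody had 1 library, so no value below has a replicate check, and every interval is an exact 95% interval that covers counting error only; reads amplified by PCR without molecular identifiers are not independent molecules.

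RNA Pol II transcribes protein-coding genes and gathers at their starts. Genomes also hold copies of such sequences, either as recent duplications of a whole stretch or as processed copies inserted elsewhere after reverse transcription of an mRNA. A short read from a sequence with an identical copy cannot be assigned to 1 of them. E2F4 is a DNA-binding protein best known as a repressor of cell cycle genes in resting cells, and H3K27me3 is laid down by the Polycomb system over silent genes.

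The libraries differed in how many of their reads were listed at 2 places. Over the autosomes, with 1 read kept per position and strand, RNA Pol II had 299748 reads at 2 places and 3111606 reads with 1 placement, which put 8.79% at 2 places. For E2F4 the share was 10.97%, and for H3K27me3 it was 5.13%. WCE replicate 1 had 37.8% of its reads at 2 places and WCE replicate 2 had 5.12%. WCE replicate 1 therefore stood apart from the other 4 libraries, and it was also the shallowest, with 417799 reads of 1 placement against 11226593 in WCE replicate 2. Read lengths were taken from the alignment setting -l in the file headers and were not measured. They were 26 bp for RNA Pol II, E2F4 and WCE replicate 1, and 36 bp for H3K27me3 and WCE replicate 2. The part that read length and WCE replicate 1 play in the values below was not tested, beyond leaving out each WCE library.

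Most sites were short. Of the 2318 regions, 1873 (80.8%) were a single bin, 389 were 1000 bp long and only 1 reached 3500 bp. The median region held 19 RNA Pol II reads at 2 places (quartiles 11 and 37, highest 1268), 2 E2F4 reads, 1 H3K27me3 read and 3 WCE reads. The median fold over WCE was 16.7 (quartiles 9.32 and 28.7). WCE replicate 1 had no read at 2 places in 2226 regions, and neither WCE library had one in 486. The rule itself requires RNA Pol II to be high, so these counts are a description.

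Sites near the thresholds were common. There were 263 bins with exactly 8 RNA Pol II reads that passed the fold threshold, and 332 bins with 7 reads that passed it but fell short on reads. Just inside the fold threshold lay a bin on chromosome 17 from 14698501 to 14699000, with 64 RNA Pol II reads and 61 WCE reads, a fold of 3.01. Just outside lay a bin on chromosome 13 from 12706001 to 12706500, with 22 RNA Pol II reads and 21 WCE reads, a fold of 2.999. All positions are on the mm8 build and counted from 1. Of the 3217 bins with at least 8 RNA Pol II reads, 88.5% passed the fold threshold.

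The sites held a large share of the RNA Pol II reads at 2 places. They took 91457 of those reads (30.5% of the library's), 16035 E2F4 reads (6.60%), 8758 H3K27me3 reads (1.71%), 125 reads of WCE replicate 1 (0.0493%) and 17403 reads of WCE replicate 2 (2.87%). Of the reads with 1 placement, which the rule did not use, the same bins took 144607 of RNA Pol II (4.65%), 30308 of E2F4 and 28772 of WCE replicate 2. The plot of mean read density around the sites shows both kinds of read. In the central 400 bp, RNA Pol II reads with 1 placement were 25.1 times as dense as 4 to 5 kb away, E2F4 reads 18.0 times, H3K27me3 reads 1.71 times, reads of WCE replicate 1 0.548 times and reads of WCE replicate 2 3.21 times. WCE replicate 2 was thus denser at the sites than around them, and WCE replicate 1 was thinner.

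**Figure D1:**
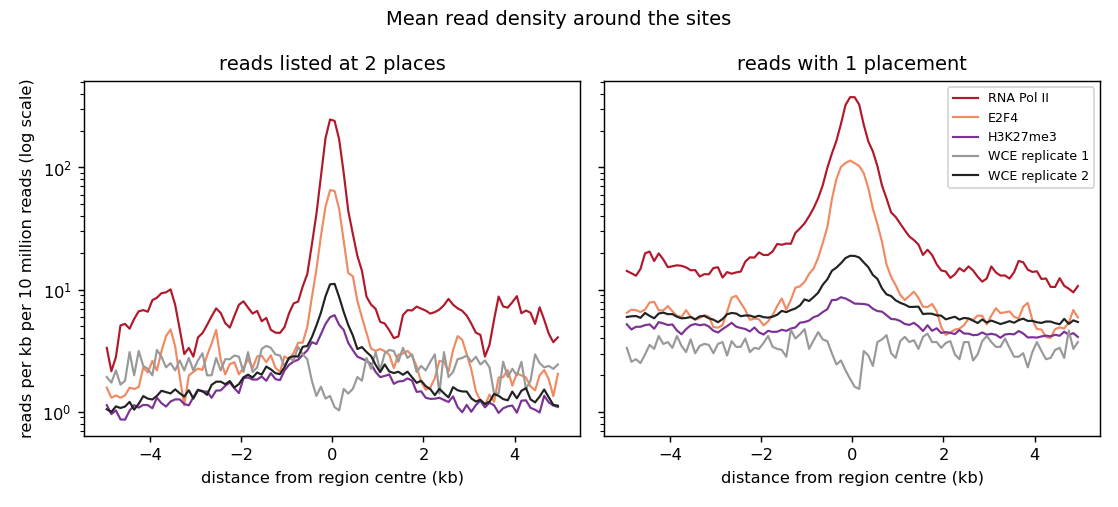
Mean read density (reads per kb, scaled to equal library totals, log scale) against distance from the region centre (kb) for the 5 libraries, over the 2318 sites, with reads listed at 2 places on the left and reads with 1 placement on the right. RNA Pol II and E2F4 peak at the centre in both panels, WCE replicate 2 rises there to a lower height, and WCE replicate 1 dips.

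The sites differed in how many of their RNA Pol II reads had 2 places. The share of a region's RNA Pol II reads that was listed at 2 places had a median of 54.3% (quartiles 18.1% and 100%). In 928 regions (40.03%) at least 90% of the reads were at 2 places, in 271 (11.7%) the share was 50 to 90%, and in 1119 (48.3%) it was under 50%. The name of the sites therefore describes all of their chosen reads but fewer than 50% of the RNA Pol II reads in 1119 of them. This share describes reads, and how much of each region has a copy was not measured. No read with 1 placement from any of the 5 libraries fell in 108 regions.

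**Figure D2:**
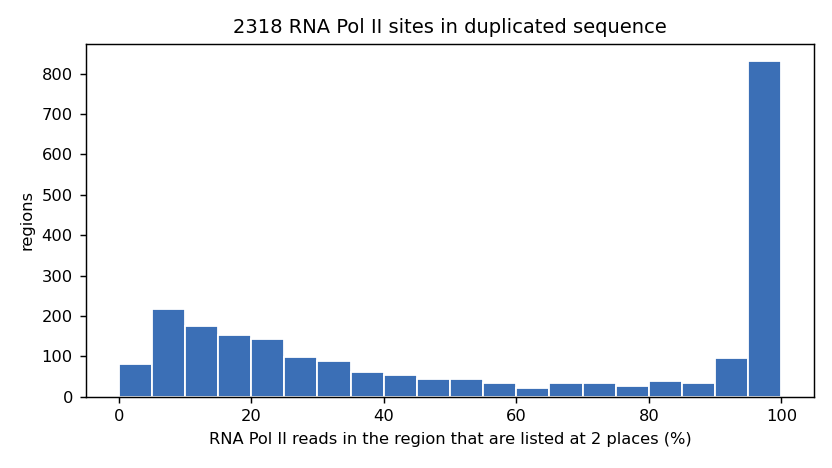
Number of regions (vertical axis) by the share of their RNA Pol II reads that is listed at 2 places (horizontal axis, %), in steps of 5%. The highest column is at 95 to 100%, and a broader group lies under 50%.

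RNA Pol II reads with 1 placement, which the rule left aside, called many of the same bins. Under the same thresholds, 1528 of the 2846 bins (53.7%, 51.8 to 55.5) were called by reads with 1 placement. The background was 4.07% of all bins with such an RNA Pol II read, and 9.32% of bins with an RNA Pol II read at 2 places. These bins were 4.20% of the 36406 that reads with 1 placement called. Counted as regions, 1299 held such a bin and 1019 did not.

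The classes differed in this. Reads with 1 placement called 23 of the 928 regions with at least 90% of reads at 2 places (2.48%), 161 of the 271 in the middle class and 1115 of the 1119 in the lowest class (99.6%). In a region where nearly all reads have 2 places, few reads are left to be called, so this order follows in part from how the classes are defined. E2F4 reads at 2 places over WCE stood at 2.48 (2.40 to 2.56) in the highest class, 3.64 (3.49 to 3.80) in the middle class and 4.91 (4.70 to 5.13) in the lowest. With reads of 1 placement, E2F4 stood at 0.905 (0.804 to 1.02), 4.06 (3.84 to 4.305) and 6.91 (6.80 to 7.04), so the highest class was not above WCE by this measure. H3K27me3 over WCE ran the other way, at 0.900, 0.815 and 0.690 with reads at 2 places. With reads of 1 placement it stood at 1.13 (1.06 to 1.198), 0.610 (0.572 to 0.650) and 0.380 (0.370 to 0.390), so the highest class lay above WCE. The classes themselves separate regions by RNA Pol II reads with 1 placement, whose medians were 0, 12 and 102 from the highest class to the lowest. The E2F4 and H3K27me3 orders are therefore descriptions, and how far they follow from that separation was not tested.

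Summed over all sites, E2F4 was above WCE, though not in the highest class with reads of 1 placement. E2F4 reads at 2 places were 3.24 times the WCE level (3.17 to 3.31), and E2F4 reads with 1 placement 6.18 times (6.08 to 6.28). The rule used the WCE reads, so the density against the flanks (1 to 5 kb away) is given too. E2F4 reads at 2 places were 39.3 times as dense in the sites as in their flanks, against 163 times for RNA Pol II, 0.539 times for WCE replicate 1 and 9.79 times for WCE replicate 2. E2F4 itself met both thresholds in 326 of the 2846 bins (11.5%, 10.3 to 12.7), with a background of 0.231% of bins with an E2F4 read. Those 326 bins were 70.6% of the 462 that E2F4 called with reads at 2 places.

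Summed over all sites, H3K27me3 was below WCE when both WCE libraries were used. Its reads at 2 places were 0.838 times the WCE level (0.817 to 0.860), and its reads with 1 placement 0.459 times. Without WCE replicate 2, which held nearly all WCE reads in the sites, the first value was 40.1 over the sites chosen again without it, so its direction rests on that library. E2F4 reads at 2 places stood at 84.8 without it. H3K27me3 reads at 2 places were 6.19 times as dense in the sites as in their flanks, below the 9.79 times of WCE replicate 2. H3K27me3 met both thresholds in 49 bins (1.72%, 1.28 to 2.27), near the background of 1.12%, and only 1 of those bins was also called for E2F4.

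The other place of the reads could be found for most sites. When a stretch is copied, its reads at 2 places share 1 offset between the copies, or 1 mirrored position where the copy is inverted. Such a place, shared by at least 80% of a region's distinct reads, was found for 1477 regions (63.7%). The 841 others had a median of 13 RNA Pol II reads at 2 places and a median of 22.4% of their reads at 2 places. Some of them had many reads at 2 places that did not share 1 other place. Why no such place was found for the 841 was not tested. Reads with 1 placement called 595 of those 841 (70.7%).

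Most copies lay on another chromosome. The other place was on another autosome for 1074 of the 1477 regions (72.7%), on the same chromosome for 329 (22.3%), on chromosome X or Y for 71 and in a stretch of chromosome 13 that the rule leaves out for 3. Copies on the same chromosome lay a median of 82510 bp apart, 53 of them within 10 kb and 83 beyond 1 Mb. They were inverted in 124 of 329 cases (37.7%, 32.4 to 43.2). Copies on another autosome were inverted in 548 of 1074 (51.02%, 48.0 to 54.1), and the intervals do not overlap. Regions that share a copy are not independent, and most copies were counted from both of their places, so these intervals are too narrow. Their lack of overlap is a description and not a test.

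A read listed at 2 places is counted at both, so a site at 1 copy brings a site at the other by construction. The other place overlapped another of the sites for 1331 regions (57.4% of all, 55.4 to 59.4). The reads with 1 placement are what can tell the copies apart, and they were counted at each copy and 1 kb to each side. Where copies lie so close that these windows overlap, the same read can count at both. Of the 1477 regions, 568 (38.5%) had a bin called by such reads at their own place alone, 652 (44.1%, 41.6 to 46.7) at the other place alone, 163 (11.04%) at both and 94 (6.36%) at neither. The regions with a call at the other place alone had a median of 100% of their RNA Pol II reads at 2 places, against 24.5% for those with a call at their own place alone. The reads with 1 placement that make the calls also enter this share, so the contrast follows in part from how the groups are defined.

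**Figure D3:**
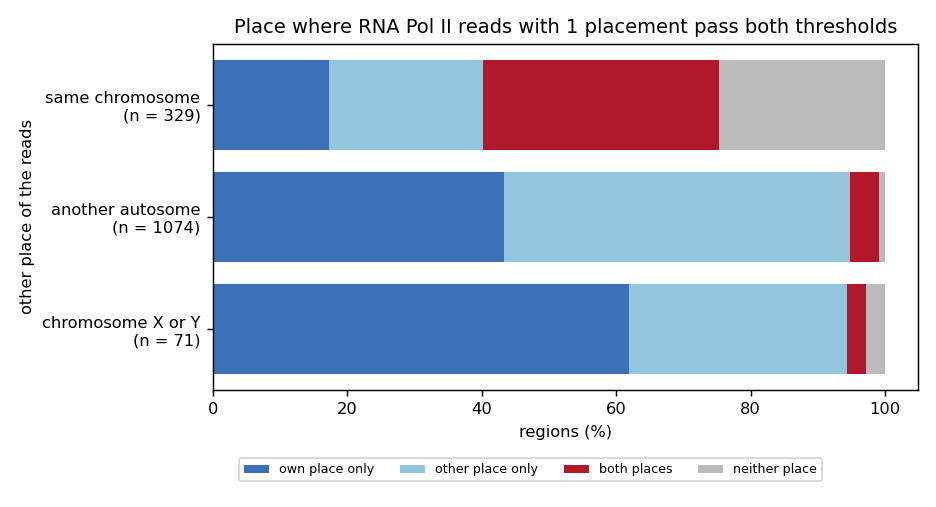
Share of regions (%) by the place where RNA Pol II reads with 1 placement met both thresholds, for regions whose other place is on the same chromosome, on another autosome or on chromosome X or Y. Calls at both places make up 35.3% of the same-chromosome regions and 4.19% of those with a copy on another autosome.

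Copies on different autosomes seldom both carried RNA Pol II by this measure. There were 553 pairs of regions that were each other's other place, 425 on 2 autosomes and 128 on 1 chromosome. On 2 autosomes, 1 of the 2 places was called in 411 pairs (96.7%, 94.5 to 98.2), both were called in 12 and neither in 2. On 1 chromosome, 1 place was called in 51 pairs (39.8%, 31.3 to 48.9), both in 42 (32.8%, 24.8 to 41.7) and neither in 35. The intervals for pairs with 1 place called do not overlap between the kinds of pair. Several pairs can lie in 1 duplicated stretch, so pairs are not independent and these intervals are too narrow. Their lack of overlap is a description and not a test. Over the 35 same-chromosome pairs with neither called, WCE replicate 2 had 139 and 71 reads with 1 placement at the higher and lower places. Some of these pairs had no read with 1 placement in any library. How far the contrast reflects how few such reads can fall there was not tested. By distance, 1 place was called in 6 of 14 same-chromosome pairs under 10 kb apart, 14 of 50 from 10 to 100 kb, 8 of 31 from 100 kb to 1 Mb and 23 of 33 beyond 1 Mb. In the same order, neither place was called in 1, 18, 14 and 2 pairs, and both were called in 7, 18, 9 and 8. Some of the pairs under 10 kb apart have overlapping windows, so their 2 places share reads and are not told apart by these counts.

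**Figure D4:**
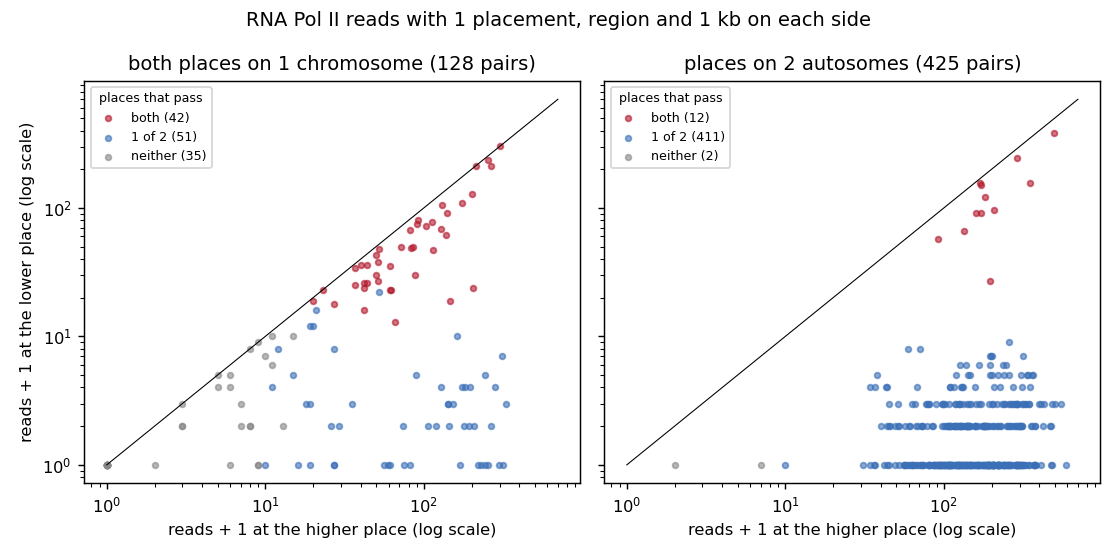
RNA Pol II reads with 1 placement (plus 1, log scales) at the lower place against the higher place of each pair, counted over the region and 1 kb on each side, for 128 pairs on 1 chromosome and 425 pairs on 2 autosomes. Colours mark pairs with both, 1 or neither place called, and the line marks equal counts. Pairs on 2 autosomes lie along the bottom, while many pairs on 1 chromosome lie near the line. In the closest pairs on 1 chromosome the windows overlap and share reads.

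In the 411 pairs on 2 autosomes with 1 place called, the called place held a lowest count of 9, a median of 151 and a highest count of 588 RNA Pol II reads with 1 placement. The other place held 0, 0 and 8, with no read at all in 213 pairs. The called place was chosen by these reads, so the contrast in RNA Pol II is a description. Reads of the other antibodies did not enter that choice. E2F4 had 18933 reads at the called places and 462 at the others, 40.7 times as many per kb (37.1 to 44.8), and was higher at the called place in 410 of 411 pairs. H3K27me3 had 9004 reads at the called places and 3382 at the others, 2.65 times as many per kb (2.54 to 2.75), and was higher at the called place in 370 pairs. WCE replicate 2 was higher at the called place in 409 of the 411 pairs, so the count of pairs does not set E2F4 apart from it.

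The WCE libraries differed over the same pairs. WCE replicate 2 had 23380 reads at the called places and 3658 at the others, 6.35 times as many per kb (6.13 to 6.58), and WCE replicate 1 had 214 and 200, 1.06 times as many (0.873 to 1.30). Relative to its autosomal mean per kb, WCE replicate 1 stood at 0.976 at the called places and 0.918 at the others, WCE replicate 2 at 3.97 and 0.625, and H3K27me3 at 1.81 and 0.684. RNA Pol II stood at 44.6 and 0.241, and E2F4 at 18.3 and 0.450. How much of each place can hold reads with 1 placement was not measured, since no genome of this build was used here. The lower WCE replicate 2 level at the other places moves with the RNA Pol II contrast, and its part in that contrast was not tested. The RNA Pol II ratio per kb was 185 (167 to 205). RNA Pol II and WCE reads both entered the choice of the called place, so the sizes of their ratios are descriptions.

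The sites with the most RNA Pol II reads at 2 places were a pair of inverted copies on chromosome 3. The region from 96323501 to 96326000 had 1266 RNA Pol II reads, 326 E2F4 reads, 29 H3K27me3 reads and 130 WCE reads at 2 places, and its copy from 96330501 to 96333000 had 1268, 327, 29 and 130. The RNA Pol II folds over WCE were 27.7 and 27.8, and the E2F4 folds 8.83 and 8.86. Near equality is built in, since the same reads are counted at both. The size of such folds rests on WCE replicate 2: without it these folds were 1072 and 1074, and the folds of all 27 regions singled out by the naming rule moved by over 1.5 times. Keeping repeats of a position moved 14 of them that far, these 2 to 49.4 and 49.5. Reads with 1 placement were not shared, and RNA Pol II had 155 of them in the first and 121 in the second, so both copies were called.

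A pair on chromosome 12 had nearly as many RNA Pol II reads and fewer E2F4 reads. The region from 55631501 to 55633500 had 1215 RNA Pol II reads, 37 E2F4 reads and 163 reads of WCE replicate 2 at 2 places, and its inverted copy from 55659001 to 55661000 had 1216, 39 and 181. The E2F4 folds over WCE were 0.815 and 0.778. These regions belonged to 8 that mirror each other about nearly 1 point, with midpoints from 55646089 to 55646093. RNA Pol II had no more than 11 reads with 1 placement in any of the 8. The 11 reads lay in the region from 55631501, where 1 bin met both thresholds, while its copy had 6 such reads and no bin that did.

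On chromosome 17 a stretch of 63.5 kb from 14697001 to 14760500 held 16 sites. All 16 had their other place in the same stretch, and for 13 it fell on another of the 16 sites. The copies ran in the same direction, with offsets from 31299 to 31379 bp. The region from 14713501 to 14716000 had 923 RNA Pol II, 292 E2F4, 91 H3K27me3 and 273 WCE replicate 2 reads at 2 places, and its copy from 14744501 to 14747500 had 946, 295, 101 and 296. No library had a read with 1 placement in either. Their E2F4 folds over WCE were 3.77 and 3.52, while E2F4 folds in the other 14 sites of the stretch ran from 0.590 to 2.06. Chromosome 17 had 1.83 sites per Mb, the most, and chromosome 16 had 0.600, the fewest. Per 1000 WCE replicate 2 reads at 2 places, however, they had 3.39 and 3.22 sites, while chromosome 19 had 5.17 and chromosome 11 had 4.89. Of the 59 sites of chromosome 16, 33 had their other place on another autosome and 0 on the same chromosome. For the rest it lay elsewhere or was not found.

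**Figure D5:**
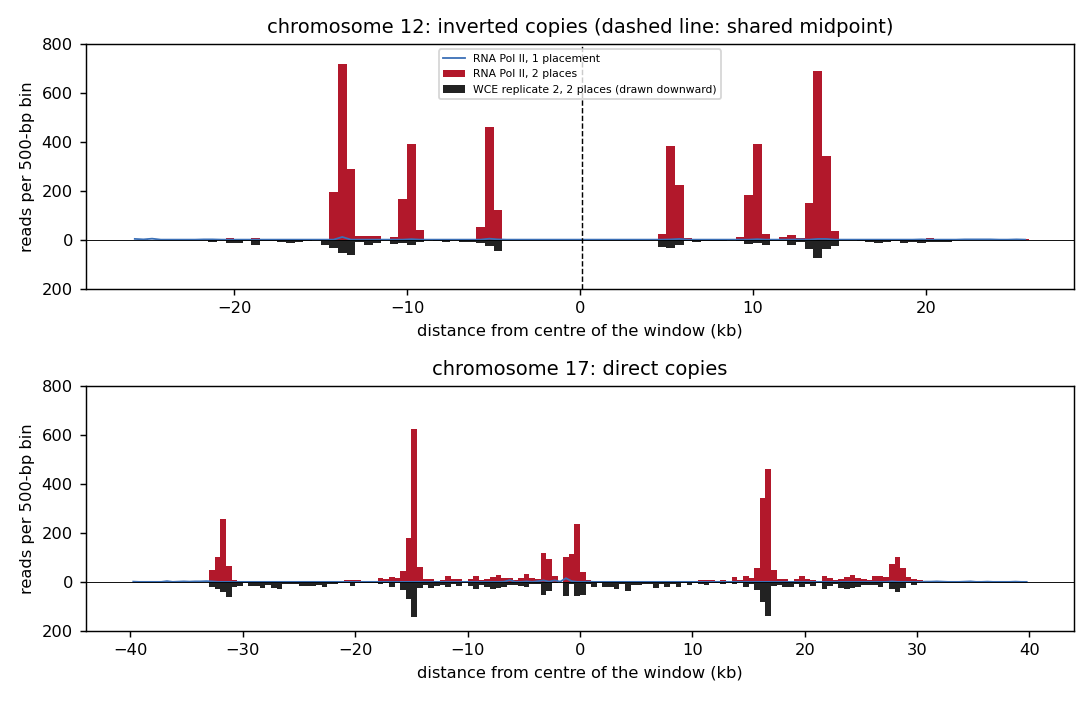
Reads per 500-bp bin against distance from the centre of the window (kb) for the inverted copies on chromosome 12 (top) and the direct copies on chromosome 17 (bottom), with RNA Pol II reads at 2 places upward, WCE replicate 2 reads at 2 places downward and RNA Pol II reads with 1 placement as a line. The chromosome 12 peaks mirror each other about the dashed line, and the line of reads with 1 placement stays near 0 in both windows.

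Other pairs showed other mixtures. Regions on chromosome 17 from 3040001 to 3041500 and on chromosome 11 from 3023001 to 3024500 had the most E2F4 reads of all sites, 435 and 434, with 721 and 716 RNA Pol II reads and 379 WCE reads each. Their RNA Pol II folds of 5.45 and 5.41 lay below the lower quartile of all sites, and their E2F4 folds were 4.06 and 4.05. Inverted copies on chromosome 11 from 101457001 to 101458500 and from 101461001 to 101462500 had 698 and 675 RNA Pol II reads with folds of 39.3 and 43.1. Direct copies on chromosome 12 from 56042001 to 56043000 and from 56117001 to 56118000, 75064 bp apart, had 243 and 239 RNA Pol II reads and no read with 1 placement in any library.

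H3K27me3 was above WCE at a few of the sites. Those given next were named among sites with an H3K27me3 fold of at least 3, so their folds above 3 were required by that choice. The highest H3K27me3 count of any site, 152 reads at 2 places, was on chromosome 17 from 14697001 to 14699000, with a fold of 1.68. Inverted copies on chromosome 3 from 96571501 to 96573000 and from 96573501 to 96575000 had 123 and 115 H3K27me3 reads at 2 places, with folds over WCE of 3.30 and 3.41. They had 406 and 396 RNA Pol II reads, with folds of 18.5 and 19.98, and 15 E2F4 reads each. RNA Pol II reads with 1 placement numbered 6 and 15 in the regions. Counted with 1 kb to each side they numbered 15 and 20, but these windows overlap and share reads. By these windows 1 of the 2 places was called. A region on chromosome 19 from 11188001 to 11189000 had 37 H3K27me3 reads and 18 WCE reads, a fold of 3.36, and 223 RNA Pol II reads at 2 places. With 1 kb to each side it held 2 RNA Pol II reads with 1 placement, against 200 at its copy on chromosome 9 from 88279501 to 88280500, and only the copy was called. H3K27me3 reads with 1 placement numbered 10 on chromosome 19 and 13 at the copy, beside 5 and 60 reads of WCE replicate 2 in the same windows. Whether the mark and the polymerase lay on the same copy, or in the same cells, cannot be told apart with these reads.

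The highest lower limits of the RNA Pol II ratio came from sites with no WCE read at 2 places. The region on chromosome 19 from 10049501 to 10050000 had 82 RNA Pol II reads and no WCE read, and the 95% interval of its ratio to WCE began at 62.3. The region on chromosome 15 from 98781001 to 98782000 had 70 RNA Pol II reads and no WCE read, and its interval began at 53.0. WCE replicate 2 had 25 and 45 reads with 1 placement in these regions, beside 358 and 435 of RNA Pol II. Among all sites, the region on chromosome 5 from 143171501 to 143172000 had the most RNA Pol II reads with 1 placement, 579, and 17 at 2 places. In these regions under 20% of the RNA Pol II reads were at 2 places, which puts them in the lowest class by that share.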

How the data were processed

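Per the labels, chromatin fragments averaging 500 bp were immunoprecipitated, amplified for 18 cycles and size-selected. Per the file headers, the authors aligned reads to mm8 with Bowtie, allowing at most 2 placements and with a mismatch setting (-n) of 2. Whether the 2 listed places match a read equally well was not measured. The Bowtie version is not given in sources used here. The deposited files list signed alignment positions, first for reads with 1 placement and then, with an even number of lines, for what is read here as reads at 2 places. Positions were read as leftmost on both strands, because mirrored positions differed by 10 bp between 26-bp and 36-bp libraries. One alignment per position and strand was kept, 5′ ends were moved 60 bp and counted in 500-bp bins on 19 autosomes, without 21.4 to 24.0 Mb of chromosome 13. Fold is the ratio of counts plus 1, scaled by autosomal totals of the same section, over both WCE libraries summed. Shares have Clopper-Pearson intervals and ratios exact conditional binomial ones. Other places needed at least 4 reads sharing an offset. Named regions were the 5 longest, the 5 highest lower limits, the 5 pairs with most reads and the 5 without reads of 1 placement. Those with most RNA Pol II reads of 1 placement were also named. Those with most E2F4 or H3K27me3 reads were taken among sites with a fold of at least 3 for that antibody. Other regions were chosen after their values were seen. The sites and comparisons were chosen with earlier results of these data known. No gene names or sequences are given, since no mm8 reference was used here. The search was tested on simulated data. Python 3.11.15, numpy 2.4.6 and scipy 1.17.1 were used.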

Additional observations from a re-analysis of the deposited data

Results flagged for a closer look

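The same thresholds were also met outside the autosomes and the stretch described. On chromosome X, 171 bins met them with reads at 2 places, holding 4080 RNA Pol II, 568 E2F4 and 379 H3K27me3 reads, against 8 reads of WCE replicate 1 and 753 of WCE replicate 2. On chromosome Y, 2 bins met them. In the part of chromosome 13 that the rule leaves out, 63 bins met them, with 3822 RNA Pol II reads against 7 and 421 WCE reads. These bins entered none of the comparisons above.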

How the results depend on the processing

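No paired analysis was possible because each antibody had 1 library. The number of sites stayed between 1663 and 2526 under the alternatives, against 2318. The share of bins also called by reads with 1 placement (53.7%) was 50.4% with a minimum of 12 reads and 58.5% with 1000-bp bins, and ran from 41.9% to 55.5% when either WCE library was left out. The share of regions with a site at their other place (57.4%) was 65.9% with a minimum of 12 reads, 53.9% with repeats of a position kept, 51.3% with 1000-bp bins, 78.3% and 38.4% when 50% and 95% of the reads had to share the place, and 57.0% to 57.2% without a WCE library. E2F4 over WCE (3.24) was 3.58 at a minimum fold of 5, 4.27 with repeats kept, 3.32 with bins starting 250 bp later, 2.96 with 1000-bp bins and 5.14 when scaled by reads with 1 placement, and 2.51 to 84.8 without a WCE library. H3K27me3 over WCE (0.838) was 0.889 with 1000-bp bins and 0.631 with that scaling, 0.591 without WCE replicate 1, and turned to 40.1 without WCE replicate 2, when 125 reads of WCE replicate 1 alone were left over the sites as reported. The share of autosomal pairs with 1 place called (96.7%) was 91.8% when 5 kb around each place was counted, and 94.9% to 96.6% without a WCE library. The 27 named regions kept a fold of at least 3 under the 5 settings tried, but 55 of their fold values moved and 80 did not: all 27 moved by over 1.5 times without WCE replicate 2 and 14 with repeats kept. The alternatives for pairs, for the share of reads at the other place and for named regions were chosen after seeing the data. Depth limits the sites with few reads, and WCE replicate 1 gives little background over them.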
